A study of Mus musculus with 8 samples.

Results

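The genes described here are 10 markers used to recognise fibroblasts and their progenitors: the receptors Pdgfra and Pdgfrb, the surface proteins Ly6a, Ly6c1, Thy1, Cd34 and Dpp4, the extracellular proteins Dpt and Clec3b, and the actin regulator Gsn. They were chosen by name, with earlier results of these data known, and 9 of the 10 were matched to counts among 12160 genes. Dpp4 was not analysed here. The cells were immortalized mouse pancreatic stellate cells (PSCs), resident mesenchymal cells of the pancreas that can become cancer-associated fibroblasts. After 4 days of growth inside Matrigel, each culture received 1 of 3 media for another 4 days. In 3 libraries (shBrca2-CM) the medium was conditioned by KPC organoids, which are mouse pancreatic cancer organoids, with Brca2 silenced by a short hairpin RNA. In 3 libraries (shControl-CM) it was conditioned by KPC organoids carrying a non-targeting hairpin. In 2 libraries it was a control medium, which the sample titles and the study's Results call DMEM and the recorded treatment and the Methods call the PSCs' own conditioned medium. The study collected organoid medium with a lower share of serum than its PSC growth medium held. Serum content may thus differ between the conditioned media and the control medium, and its part was not tested. The hairpins acted in the organoids and not in the PSCs, so the silenced gene is not a check on these libraries. All libraries came from a single immortalized line, and each was made from a Matrigel dome described as independent, so p-values cover the spread between domes of that line. Separate silencings or batches of medium within a group are not described. Differences between the organoid cultures, hairpins or batches of medium thus cannot be told apart from an effect of silencing Brca2.

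PDGF receptors are tyrosine kinases through which platelet-derived growth factors drive growth and migration of mesenchymal cells. PDGFRα marks many fibroblasts, and PDGFRβ also marks pericytes and activated stellate cells. Ly6a (Sca-1), Ly6c1, Thy1 and Cd34 lie on the surface of fibroblast progenitors and of several blood or endothelial cells, so none belongs to fibroblasts alone. Dpt (dermatopontin) and Clec3b (tetranectin) are secreted proteins, and together with Cd34, Ly6a, Dpp4 and Pi16 they are used to recognise adventitial, progenitor-like fibroblasts. In pancreatic cancer of the mouse, Pdgfra, Ly6c1, Dpt and Clec3b have been used as markers of the inflammatory kind of cancer-associated fibroblast.

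The shBrca2-CM libraries held 655996 to 1095534 counts in total, the shControl-CM libraries 1093609 to 1624392 and the control medium libraries 4623846 to 5476988. The lower depth with conditioned medium limits weakly expressed genes, since 3 counts corresponded to 2.66 to 4.34 CPM (counts scaled to the library total) in shBrca2-CM libraries and to 0.521 to 0.645 CPM in those of control medium. All levels below are CPM after TMM scaling, which adjusts for differences in composition between libraries, and errors are SDs over libraries. Reads came from the 3′ ends of transcripts, so a gene's level was compared between media and not with another gene's. The 9 genes took 0.153% to 0.263% of a library's counts. In bulk RNA, fewer cells of a type and less RNA per cell cannot be told apart.

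The culture carried fibroblast transcripts in every medium. Of 10 fibroblast identity genes, 9 had counts, and their summed level ran from 2881 to 3869 CPM in shBrca2-CM libraries, from 2414 to 3229 CPM in shControl-CM libraries and from 8595 to 10382 CPM in control medium libraries. The intermediate filament gene Vim averaged 3756 CPM (n = 2) in control medium, 586 ± 157 CPM (n = 3) in shBrca2-CM and 361 ± 111 CPM (n = 3) in shControl-CM. Gfap, a marker of quiescent stellate cells, was not analysed here. Of markers of cell types that share members of the group, endothelial genes summed to 18.6 to 29.95 CPM and immune genes to 9.46 to 36.0 CPM over all libraries. Pecam1, Cdh5 and Ptprc, the defining genes of those lists, were not analysed here, and the endothelial receptor gene Kdr had 14 and 11 counts in the control medium libraries, 2, 0 and 0 counts with shControl-CM and 0 counts in each of the 3 shBrca2-CM libraries.

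Between the conditioned media, the comparison that asks how silencing Brca2 in the cancer cells changes the PSC response, Dpt, Ly6c1 and Pdgfra were higher with shBrca2-CM than with shControl-CM, by 2.34-fold, 2.05-fold and 1.80-fold. Of the 8 genes tested, 3 were called higher and 0 lower. The number called was 2 without shBrca2-CM library 1, 1 without shBrca2-CM library 2 or 3 or shControl-CM library 2, and 4 without shControl-CM library 1 or 3, and of the 3 genes Dpt alone kept its call in all 6 omissions. A gene was called when edgeR's quasi-likelihood test gave an adjusted p under 0.1, the absolute log2 fold change was over 0.5 and the mean normalised count was over 5. Over all 11035 genes tested, 3.13% were called, 1.58% higher and 1.55% lower, or 345 genes, a count that ran from 128 without shBrca2-CM library 2 to 976 without shControl-CM library 1. The libraries of the 2 groups did not overlap for 5 of the 8 genes, against 19.8% of all genes. The median log2 fold change of the 8 genes was 0.67, and that of all genes 0.03. Since the genes were chosen with earlier results of these data known, these contrasts with all genes are a description.

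**Figure D1:**
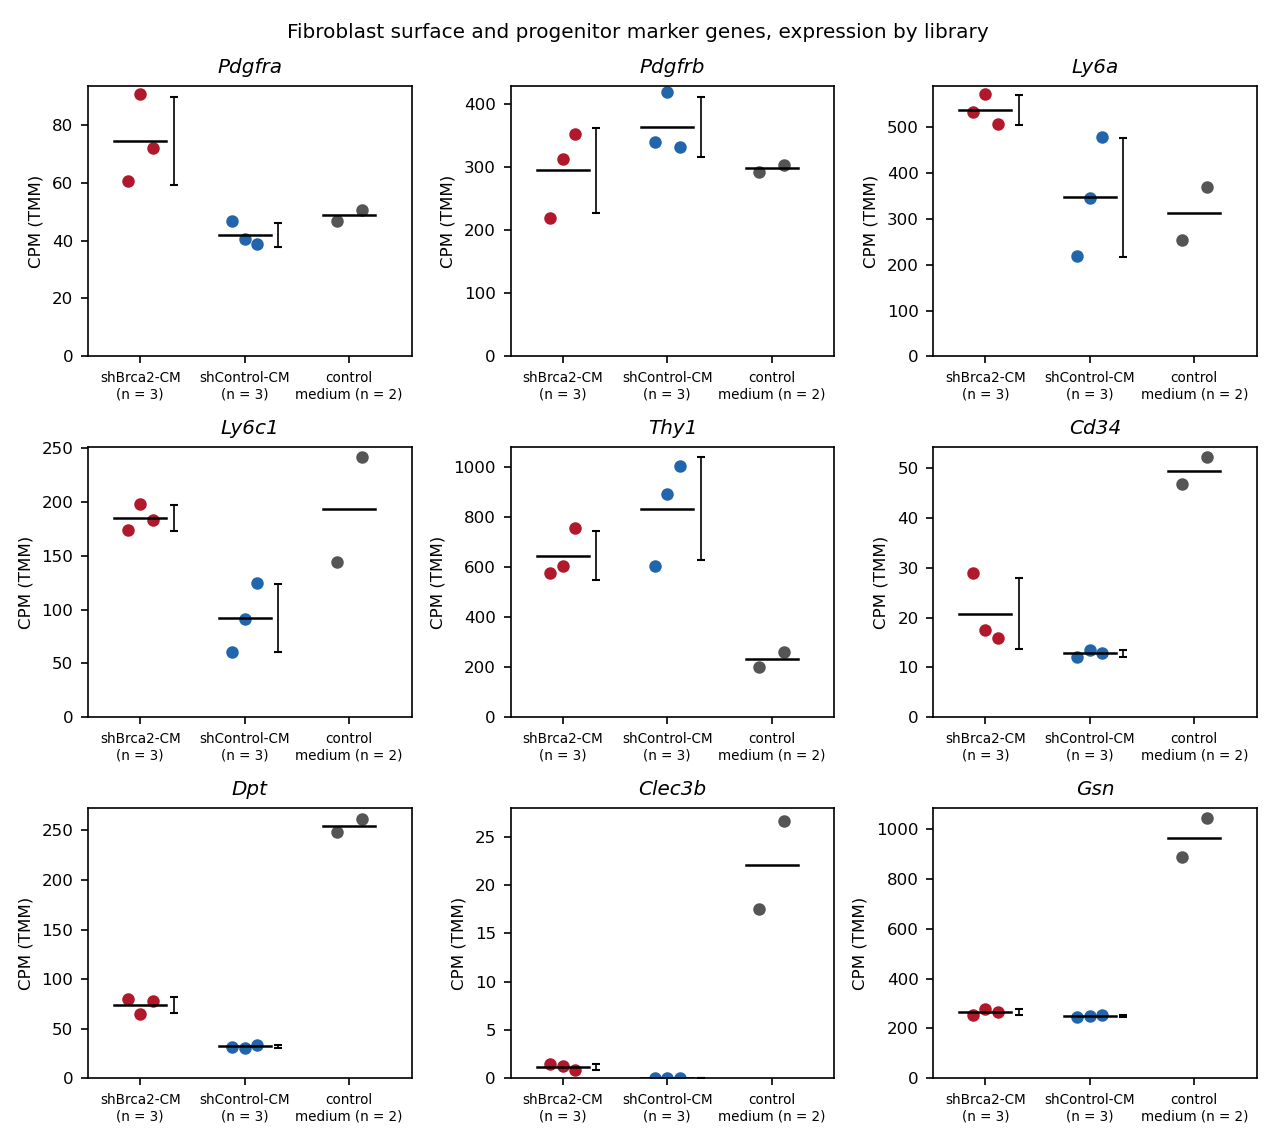
Expression of the 9 genes with counts, in TMM-scaled CPM (vertical axes, starting at 0), in each library of the 3 media; points are libraries and bars are group means. Dpt, Ly6c1 and Pdgfra lie higher in all 3 shBrca2-CM libraries than in the 3 shControl-CM libraries, while Dpt, Cd34, Gsn and Clec3b are highest in the 2 control medium libraries.

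The promoters of the 3 called genes are shown because these were the genes called higher between the conditioned media. Each is the 250 bases before the start that RefSeq gives on GRCm38.p6 (the mm10 build), read 5′ to 3′ on the gene's strand. Dpt (chromosome 1, 164796663 to 164824274, plus strand) has its window directly upstream of the gene at chr1:164796413-164796662. The Ly6c1 window, chr15:75048838-75049087 on the minus strand, precedes the first of 2 starts listed and overlaps the gene's annotated span (chromosome 15, 75044018 to 75048920). The Pdgfra window, chr5:75152001-75152250 on the plus strand, lies inside the gene's annotated span (chromosome 5, 75151322 to 75198206) and before the start used. Capitals mark the only match found to the motifs searched.
Dpt: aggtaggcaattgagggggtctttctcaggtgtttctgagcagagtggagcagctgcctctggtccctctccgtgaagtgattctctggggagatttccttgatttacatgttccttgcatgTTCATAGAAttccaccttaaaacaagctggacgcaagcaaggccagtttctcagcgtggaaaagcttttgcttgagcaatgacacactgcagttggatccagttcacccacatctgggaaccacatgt
Ly6c1: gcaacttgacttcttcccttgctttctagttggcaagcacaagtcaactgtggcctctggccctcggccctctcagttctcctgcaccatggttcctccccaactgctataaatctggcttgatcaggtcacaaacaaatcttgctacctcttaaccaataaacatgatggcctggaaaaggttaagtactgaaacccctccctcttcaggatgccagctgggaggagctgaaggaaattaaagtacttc
Pdgfra: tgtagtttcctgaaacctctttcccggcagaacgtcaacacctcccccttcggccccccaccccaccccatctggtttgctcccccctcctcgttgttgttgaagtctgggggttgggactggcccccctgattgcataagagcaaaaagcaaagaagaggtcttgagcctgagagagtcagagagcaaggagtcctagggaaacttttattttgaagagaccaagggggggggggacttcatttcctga
Both strands of each window were searched for a GAS element, to which STAT factors bind (TTCNNNGAA), an NF-kB motif, an AP-1 motif (TGANTCA) and a GC box (GGGCGG). A GAS match, TTCATAGAA, stood 128 to 120 bases before the Dpt start, and 7.02% of 32851 RefSeq promoter windows of the same length held such a match. No match to the other 3 motifs, which were present in 3.90%, 6.75% and 32.7% of the windows, was seen in these 3 windows. The GC content was 48.8% for Dpt, 48.4% for Ly6c1 and 54.4% for Pdgfra.

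Of the PDGF receptors, Pdgfra rose with shBrca2-CM and Pdgfrb was not called. Pdgfra stood at 60.8, 90.8 and 71.9 CPM with shBrca2-CM, at 46.8, 40.6 and 38.7 CPM with shControl-CM and at 46.9 and 50.7 CPM with control medium. All 3 shBrca2-CM libraries lay above the other 5. The log2 fold change against shControl-CM was 0.85 (SE 0.20, 95% interval 0.42 to 1.28, edgeR adjusted p = 0.0519). The libraries behind it held 42 to 81 counts of the gene, and the call was lost without shBrca2-CM library 2 (adjusted p = 0.279), without shBrca2-CM library 3 (adjusted p = 0.165) and without shControl-CM library 2 (adjusted p = 0.198), and with DESeq2 (adjusted p = 0.106 by its likelihood ratio test). Against control medium, Pdgfra was 1.53-fold higher with shBrca2-CM (log2 0.62, SE 0.18, edgeR adjusted p = 0.00460), and this call was lost without shBrca2-CM library 2 (log2 0.47). With shControl-CM its difference from control medium was −0.22 on the log2 scale (95% interval −0.66 to 0.22, edgeR adjusted p = 0.420).

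Pdgfrb stood at 219.9, 312 and 352 CPM with shBrca2-CM, at 339.6, 418 and 331 CPM with shControl-CM and at 293 and 304 CPM with control medium. The conditioned media overlapped, and the lowest value belonged to shBrca2-CM library 1. Between them the log2 fold change was −0.27 (SE 0.17, 95% interval −0.64 to 0.10, edgeR adjusted p = 0.553). Against control medium the log2 fold change was 0.28 with shControl-CM (adjusted p = 0.217), whose 3 libraries all lay above the control libraries, and −0.00 with shBrca2-CM (95% interval −0.30 to 0.29, adjusted p = 0.991). The comparisons with control medium share the same 2 control libraries throughout.

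Because both receptors were counted in the same library, their ratio does not depend on the scaling. The ratio of Pdgfra to Pdgfrb counts was 0.276, 0.291 and 0.205 with shBrca2-CM, 0.138, 0.0970 and 0.117 with shControl-CM and 0.160 and 0.167 with control medium. Every shBrca2-CM library lay above every other library. The ratio was 2.19-fold higher with shBrca2-CM than with shControl-CM (log2 difference 1.13). An exact two-sided permutation test gave p = 0.1, the smallest that 3 libraries against 3 allow, and 0.1 after adjustment over the 2 ratios computed. Both ratios were chosen after the values of the genes had been seen.

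**Figure D2:**
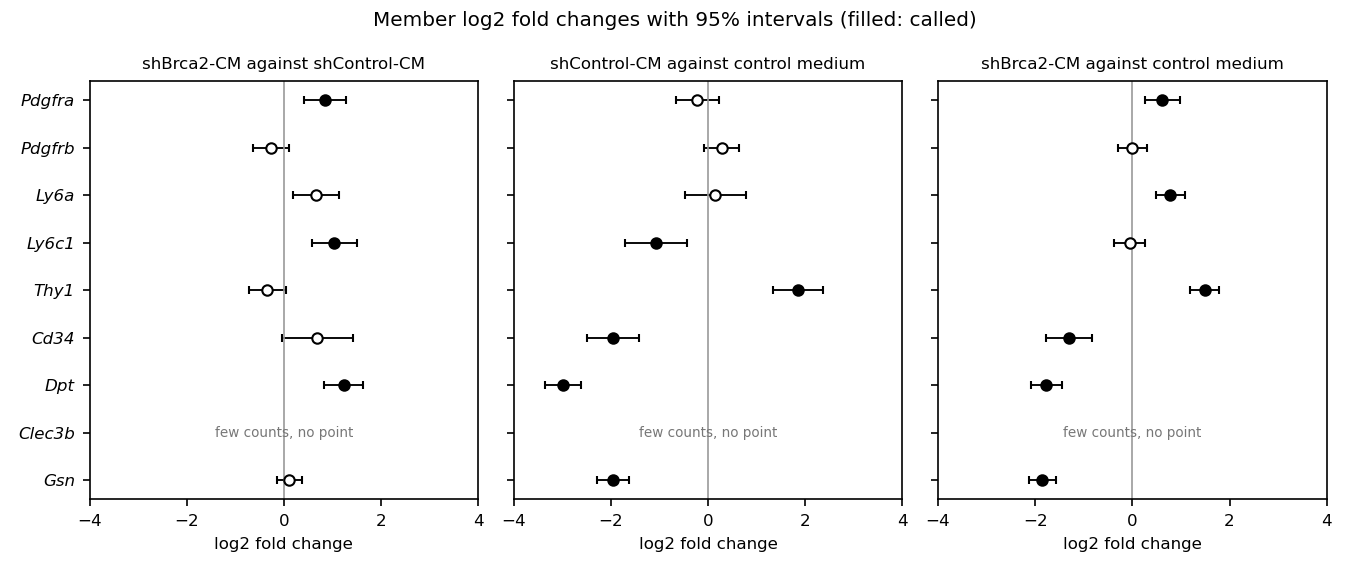
Log2 fold changes of the genes in the 3 comparisons of media (horizontal axes, log2 scale) with 95% intervals; filled points were called. Dpt, Ly6c1 and Pdgfra are to the right of 0 between the conditioned media, and Dpt, Cd34 and Gsn are to the left of 0 in both comparisons with control medium.

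Ly6a and Ly6c1 encode small GPI-anchored proteins of the Ly6 family, and their genes lie on the same stretch of chromosome 15, Ly6a at 74994877 to 74998031. Ly6c1 was at 174, 198 and 183 CPM with shBrca2-CM and at 60.9, 90.8 and 124 CPM with shControl-CM, and the control medium libraries were at 144 and 242 CPM. The shBrca2-CM libraries lay close together and above all shControl-CM libraries, and within the range of the control medium libraries. Relative to shControl-CM, the log2 fold change of Ly6c1 with shBrca2-CM was 1.04 (SE 0.21, 95% interval 0.57 to 1.503, edgeR adjusted p = 0.0262). This call was lost when shBrca2-CM library 1, 2 or 3 (adjusted p = 0.109, 0.183 and 0.132) or shControl-CM library 2 (adjusted p = 0.153) was left out, with log2 fold changes of 0.77 to 1.32 over all 6 omissions. Against control medium, Ly6c1 was 2.11-fold lower with shControl-CM (log2 −1.08, SE 0.29, edgeR adjusted p = 0.0174), a call lost without control medium library 2 (log2 −0.66, adjusted p = 0.237). With shBrca2-CM the log2 difference from control medium was −0.06 (95% interval −0.38 to 0.26, adjusted p = 0.814). Reads of the near-identical neighbour Ly6c2, at 75108161 to 75112066 on chromosome 15, could have been counted for Ly6c1. Ly6c2 itself was not analysed here.

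Ly6a was at 532, 572 and 507 CPM with shBrca2-CM, at 219, 345 and 479 CPM with shControl-CM and at 255 and 369.9 CPM with control medium. The shBrca2-CM libraries again lay together, above the other 5, while the shControl-CM libraries spread over more than 2-fold. The 2 conditioned media differed by a log2 fold change of 0.66 (SE 0.22, 95% interval 0.18 to 1.13), and the gene was not called (edgeR adjusted p = 0.184). It was called without shControl-CM library 3 (log2 0.95, adjusted p = 0.00122), with scaling by total counts (adjusted p = 0.0824) and with all libraries thinned to the same depth (adjusted p = 0.0808). Against control medium, Ly6a was 1.72-fold higher with shBrca2-CM (log2 0.78, SE 0.15, edgeR adjusted p = 1.33e-05). With shControl-CM the difference was 0.14 (SE 0.28, adjusted p = 0.717), with a sign that turned without shControl-CM library 3 (−0.16) or control medium library 1 (−0.08).

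Within the shControl-CM group, Ly6c1 and Ly6a were low or high in the same libraries. There the coefficient of variation was 37.4% for Ly6a and 34.5% for Ly6c1, and 3.60% for their ratio. The ratio of Ly6c1 to Ly6a was 0.278, 0.263 and 0.260 with shControl-CM, 0.326, 0.346 and 0.361 with shBrca2-CM and 0.566 and 0.654 with control medium. The 3 media did not overlap, with control medium highest and shControl-CM lowest. Between the conditioned media the ratio differed 1.29-fold (log2 difference 0.37, exact two-sided permutation p = 0.1, the smallest possible, adjusted p = 0.1 over 2 ratios).

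**Figure D3:**
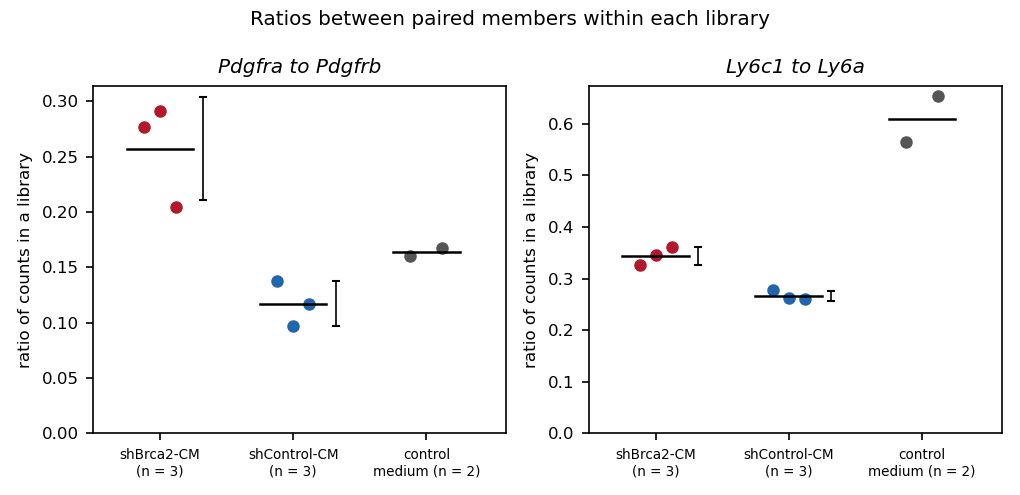
Ratio of counts between 2 pairs of genes within each library (vertical axes, starting at 0), Pdgfra to Pdgfrb and Ly6c1 to Ly6a; points are libraries and bars are group means. The shBrca2-CM libraries lie above the shControl-CM libraries in both panels, and the control medium libraries are highest only for Ly6c1 to Ly6a.

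Thy1, a GPI-anchored glycoprotein of fibroblasts, neurons and T cells, was higher with either conditioned medium than with control medium. It was at 576, 604 and 757 CPM with shBrca2-CM, at 606, 892 and 1004 CPM with shControl-CM and at 200.03 and 262 CPM with control medium. All 6 conditioned medium libraries lay above both control libraries, and the conditioned media overlapped. The gene rose 3.59-fold with shControl-CM (log2 1.84, SE 0.23, edgeR adjusted p = 3.56e-04) and 2.81-fold with shBrca2-CM (log2 1.49, SE 0.15, adjusted p = 1.71e-12). Between the conditioned media the log2 fold change was −0.34 (SE 0.18, 95% interval −0.72 to 0.04, edgeR adjusted p = 0.449), and the gene was called without shControl-CM library 1 (−0.55, adjusted p = 0.0296).

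Cd34, a sialomucin of blood progenitors, endothelium and adventitial fibroblasts, fell with both conditioned media. It was at 28.9, 17.4 and 16.0 CPM with shBrca2-CM, from 14 to 20 counts, at 12.2, 13.5 and 12.9 CPM with shControl-CM, from 14 to 19 counts, and at 46.7 and 52.2 CPM with control medium. All 3 media were separate, with shControl-CM lowest. Against control medium the gene was 3.87-fold lower with shControl-CM (log2 −1.95, SE 0.24, edgeR adjusted p = 3.10e-04) and 2.46-fold lower with shBrca2-CM (log2 −1.30, SE 0.24, adjusted p = 8.78e-06). The difference between the conditioned media, 0.69 on the log2 scale (SE 0.33, 95% interval −0.03 to 1.42), was not detectable at this depth (edgeR adjusted p = 0.408). Beside Cd34, the endothelial gene Kdr was also highest with control medium, at 2.399 CPM, against 0.427 CPM with shControl-CM. Its 0 counts in the shBrca2-CM group allow up to 1.14 CPM. The sum of the 5 endothelial genes with counts was 21.5 to 22.9 CPM with control medium, within the 18.6 to 29.95 CPM of the conditioned media. Their part in the difference in Cd34 was not tested.

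Dpt, which binds decorin and collagen in the matrix, had the smallest adjusted p of the group between the conditioned media. It was at 79.6, 64.7 and 78.1 CPM with shBrca2-CM, at 31.4, 30.9 and 34.0 CPM with shControl-CM and at 248 and 261 CPM with control medium. The 3 media were far apart, with control medium highest and shControl-CM lowest. Its log2 fold change with shBrca2-CM against shControl-CM was 1.23 (SE 0.19, 95% interval 0.83 to 1.63, edgeR adjusted p = 0.00356), and the gene was called in all 15 alternative settings, with log2 fold changes of 1.18 to 1.34. Against control medium Dpt was 7.95-fold lower with shControl-CM (log2 −2.99, SE 0.17, edgeR adjusted p = 2.13e-06) and 3.42-fold lower with shBrca2-CM (log2 −1.77, SE 0.16, adjusted p = 3.02e-14).

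Clec3b, a plasminogen-binding lectin, was close to 0 with either conditioned medium. It had 101 and 124 counts with control medium, 0 counts in each of the 3 shControl-CM libraries and 1 count in each of the 3 shBrca2-CM libraries. With 3 counts taken as the limit that a count of 0 allows over the group, or 0.737 CPM, the gene was at least 29.3-fold lower with shControl-CM than with control medium. With shBrca2-CM it was 18.9-fold lower (95% exact counting interval 6.38 to 92.3, which covers counting error only). Its 3 counts over the 6 conditioned medium libraries were too few for a test between them. The gene passed the filter on low counts through the control medium libraries alone, so its calls against control medium are given as a description, without their p-values.

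Gsn (gelsolin), which severs and caps actin filaments, was at 253, 279 and 267 CPM with shBrca2-CM, at 247, 251 and 253 CPM with shControl-CM and at 886 and 1044 CPM with control medium. The conditioned media differed by 0.11 on the log2 scale (SE 0.12, 95% interval −0.15 to 0.38, edgeR adjusted p = 0.751). Both lay well below control medium, by 3.87-fold with shControl-CM (log2 −1.95, SE 0.15, edgeR adjusted p = 1.59e-05) and by 3.61-fold with shBrca2-CM (log2 −1.85, SE 0.14, adjusted p = 1.69e-17). The shControl-CM libraries agreed closely for Gsn, at 251 ± 3.05 CPM (n = 3, coefficient of variation 1.22%).

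Against control medium, 5 of the 8 genes other than Clec3b were called with shControl-CM, Thy1 higher and Ly6c1, Cd34, Dpt and Gsn lower (6 of 9 with Clec3b). Over all 12086 genes tested 37.1% were called, 18.2% higher and 18.9% lower. Groups did not overlap for 7 of the 8, against 59.9% of all genes. With shBrca2-CM 6 of the 8 were called, Pdgfra, Ly6a and Thy1 higher and Cd34, Dpt and Gsn lower (7 of 9 with Clec3b), against 37.8% of 12049 genes, 18.6% higher and 19.2% lower. Groups did not overlap for 6 of the 8, against 57.4%. The median log2 fold change of the 8 was −0.65 with shControl-CM and −0.03 with shBrca2-CM, beside −0.10 and −0.05 for all genes. With Clec3b, at its fitted value or at its bound, the medians were −1.08 and −0.06.

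**Figure D4:**
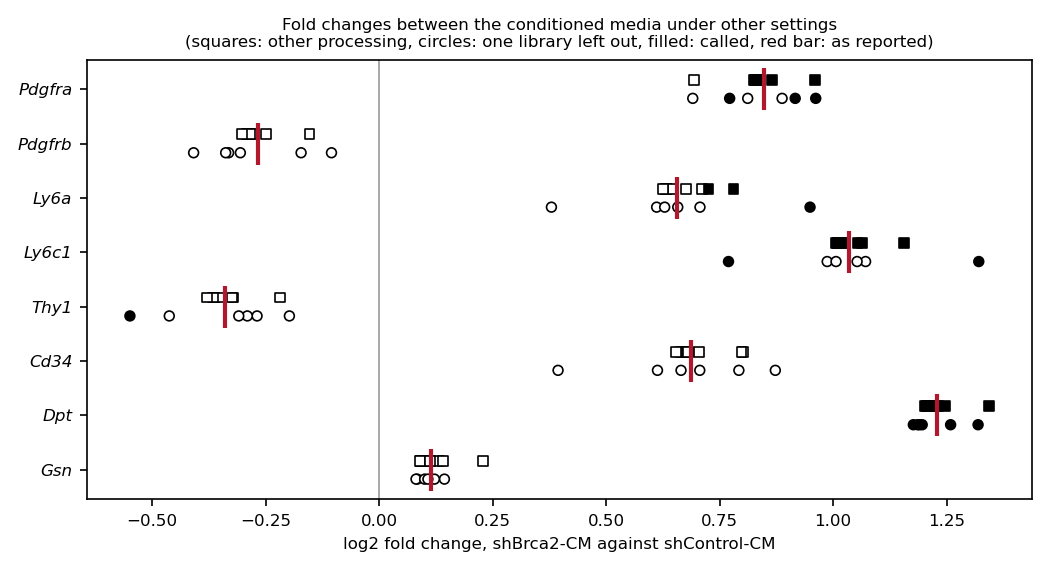
Log2 fold changes between shBrca2-CM and shControl-CM under other settings, by gene (horizontal axis, log2 scale); squares are other processing, circles leave out a library, filled symbols were called and red bars give the values as reported. Dpt is filled throughout at 1.18 to 1.34, while Pdgfra and Ly6c1 hold open symbols.

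Of the ligands and signalling partners of the PDGF receptors, 13 were tested between the conditioned media, with 0 called higher, 2 lower and a median log2 fold change of −0.05. Pdgfa, a ligand of PDGFRα, averaged 45.4 ± 9.55 CPM in shBrca2-CM libraries, 101 ± 23.9 CPM in shControl-CM libraries (n = 3 each) and 44.5 CPM in control medium. It fell by 1.14 on the log2 scale with shBrca2-CM against shControl-CM (edgeR adjusted p = 0.0216). Pdgfrl, which encodes a PDGF receptor-like protein, fell by 1.08 (adjusted p = 0.0302), from 76.5 ± 18.03 CPM to 35.8 ± 4.20 CPM. Against control medium 3 of 14 were called higher and 2 lower with shControl-CM, and 3 higher and 3 lower with shBrca2-CM. Over all genes 18.2% were called higher and 18.9% lower with shControl-CM, and 18.6% and 19.2% with shBrca2-CM. Between the conditioned media these shares were 1.58% and 1.55%. The counts of this list and of those below stand beside these shares, without a set test. Pdgfb with shBrca2-CM (1, 5 and 1 counts) passed the filter on low counts through control medium alone.

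Among 20 genes of universal and adventitial fibroblasts, the setting in which Dpt, Cd34, Ly6a and Clec3b are best known, 15 were tested between the conditioned media and moved in both directions, 4 higher and 4 lower, with a median log2 fold change of 0.48. Penk, which encodes the enkephalin precursor, was at 53.2 ± 8.53 CPM with shBrca2-CM and at 309 ± 96.4 CPM with shControl-CM (log2 −2.53, edgeR adjusted p = 1.37e-04). Dcn (decorin) was at 1086 ± 160 and 2107 ± 170 CPM (log2 −0.93, adjusted p = 0.00314), and at 92.4 CPM with control medium, the order opposite to that of Dpt. Ly6e, a Ly6 family gene, was higher at 2259 ± 351 against 1432 ± 56.1 CPM (log2 0.68, adjusted p = 0.0189), as was the annexin gene Anxa3 at 43.5 ± 8.89 against 18.2 ± 4.20 CPM (log2 1.27, adjusted p = 0.0262). The other 4 called were named after their values were seen. Of these, Pi16 (log2 1.11, adjusted p = 0.0774) and Igfbp6 (log2 0.58, adjusted p = 0.0532) were higher, and Lum (log2 −1.59, adjusted p = 0.0849) and Ackr3 (log2 −1.17, adjusted p = 0.0632) lower. Against control medium 5 of 17 were called higher and 7 lower with shControl-CM, and 6 and 6 with shBrca2-CM. Over all genes the shares were 18.2% and 18.9%, and 18.6% and 19.2%. The lower calls include Col15a1, with 3, 1 and 0 counts with shControl-CM and 2, 2 and 1 with shBrca2-CM. It passed the filter on low counts through control medium alone, so its calls are a description.

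Of 19 other mesenchymal surface markers tested between the conditioned media, 0 were called higher and 2 lower, with a median of −0.15. Nt5e (CD73, which makes adenosine outside the cell) was at 8.57 ± 1.27 CPM with shBrca2-CM and 42.9 ± 9.98 CPM with shControl-CM (log2 −2.26, edgeR adjusted p = 0.00199). Pdpn (podoplanin) was at 113 ± 11.6 and 241 ± 64.2 CPM (log2 −1.07, adjusted p = 0.0118), and at 27.6 CPM with control medium. Both thus lay lower with shBrca2-CM where Pdgfra and Ly6c1 lay higher. Against control medium 5 of 20 markers were called higher and 7 lower with shControl-CM, and 5 and 8 with shBrca2-CM. Over all genes the shares were 18.2% and 18.9%, and 18.6% and 19.2%. Some lower calls passed the filter on low counts through control medium alone and are a description. These were Ngfr and Cdh11 in both comparisons, Itga11 with shControl-CM and Anpep with shBrca2-CM.

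In the Ly6 and uPAR domain family 1 of 4 tested genes, Ly6e, was called higher between the conditioned media and 0 lower (median 0.27), while against control medium 0 of 6 were called with shControl-CM and 1 higher and 1 lower with shBrca2-CM. Of 11 genes of the gelsolin family and of actin severing, 0 were called in either direction between the conditioned media (median 0.08), with Cfl1 (cofilin) at 2379 and 2885 CPM (edgeR adjusted p = 0.477) and Capg at 559 and 758 CPM (adjusted p = 0.208). Against control medium 3 of the 11 were higher and 1 lower with shControl-CM, and 2 and 1 with shBrca2-CM. Of 6 relatives and substrates of DPP4, the protease that trims chemokines, 1 was called higher and 0 lower (median 0.28). This was Cxcl12, a DPP4 substrate that recruits leukocytes, with means of 1247 ± 246 CPM for shBrca2-CM, 451 ± 88.3 CPM for shControl-CM and 3768 CPM for control medium (log2 1.49, adjusted p = 7.29e-04), the same order of media as Dpt. With either conditioned medium 2 of the 6 were lower than with control medium, and 0 and 1 were higher with shControl-CM and shBrca2-CM. Over all genes 18.2% were called higher and 18.9% lower with shControl-CM, and 18.6% and 19.2% with shBrca2-CM.

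**Figure D5:**
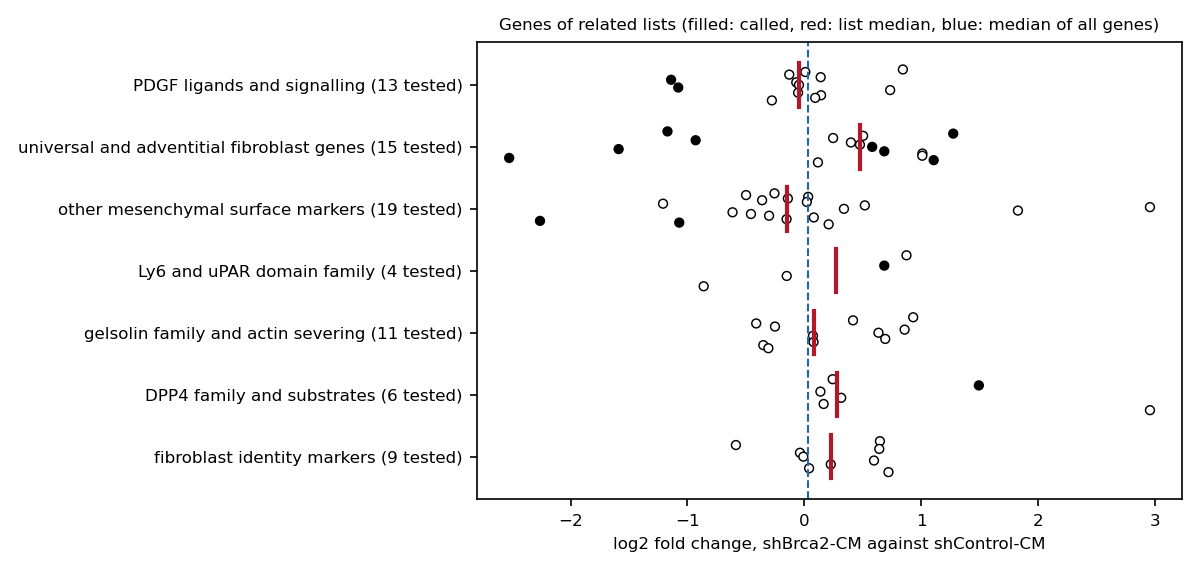
Log2 fold changes between shBrca2-CM and shControl-CM of the tested genes in the related gene lists (horizontal axis, log2 scale); filled points were called, red marks list medians and blue the median of all genes, 0.03. Universal and adventitial fibroblast genes have called genes on both sides of 0, while the called PDGF partners and mesenchymal surface markers lie to the left.

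Of the 9 fibroblast identity genes, 0 were called between the conditioned media (median 0.23), with Vim at an edgeR adjusted p of 0.177 and Fn1 (fibronectin) at 0.466. Against control medium 8 of 9 were lower with each conditioned medium, and 0 with shControl-CM and 1 with shBrca2-CM were higher, so Dpt, Cd34 and Gsn fell beside Vim and collagen genes. Over all genes 18.9% were called lower with shControl-CM and 19.2% with shBrca2-CM. The 8 include Acta2, with 3, 2 and 1 counts in each conditioned medium and 170 and 107 with control medium. It passed the filter on low counts through control medium alone, so its calls are a description. Endothelial genes gave 0 calls in all comparisons, with 2 tested between the conditioned media and 5 against control medium. Kdr was below control medium with either conditioned medium and missed a call in both comparisons only because its mean normalised count was under 5. It had passed the filter on low counts through the control medium libraries alone. Flt1 was at 12.9, 19.5 and 12.3 CPM with shBrca2-CM, shControl-CM and control medium, and Erg at 5.83, 5.68 and 3.52 CPM. Of 3 immune genes 0 were called between the conditioned media, and 2 were higher with shControl-CM and 1 with shBrca2-CM than with control medium. The macrophage gene Cd68 was at 13.5, 17.5 and 4.28 CPM and Csf1r at 1.60, 9.45 and 2.18 CPM.

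Epithelial, pericyte and mesothelial lists held 3, 4 and 2 genes with counts. Epithelial genes summed to 59.3 to 94.1 CPM with shBrca2-CM, 57.7 to 70.6 CPM with shControl-CM and 37.0 to 41.7 CPM with control medium, pericyte genes to 69.4 to 83.4, 55.1 to 65.4 and 110 to 113 CPM, and mesothelial genes to 17.4 to 50.6, 12.2 to 16.3 and 33.9 to 51.2 CPM. Pericyte and mesothelial sums were lowest with shControl-CM, as Dpt and Ly6c1 were, and their part in those differences was not tested. Of the 4 pericyte genes, Notch3 had that order, Mcam was nearly equal between the conditioned media, and Cspg4 and Cox4i2 had other orders. Cspg4 was at 5.48, 12.6 and 13.4 CPM for shBrca2-CM, shControl-CM and control medium, Mcam at 9.22, 9.14 and 19.6 CPM and Cox4i2 at 15.2, 11.5 and 2.39 CPM, so the difference in the sum between the conditioned media came mostly from Notch3. Between the conditioned media 1 gene of each list was called higher and 0 lower. These were the keratin gene Krt19, which both the epithelial and mesothelial lists hold, at 11.8, 2.82 and 24.8 CPM (edgeR adjusted p = 0.0632), and Notch3 of the pericyte list, at 47.1, 28.0 and 76.0 CPM (adjusted p = 0.0998). Against control medium 2 epithelial genes were higher and 1 lower with either conditioned medium. Of the pericyte genes 1 was higher and 2 lower with shControl-CM, and 1 and 3 with shBrca2-CM. Of the mesothelial genes 0 were higher and 1 was lower with each. Over all genes 18.2% were called higher and 18.9% lower with shControl-CM, and 18.6% and 19.2% with shBrca2-CM. Epcam, Cdh1 and Rgs5 were not analysed here.

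Genes with a pattern most like that of Dpt and Ly6c1, the 2 genes of the group with at least 10 CPM on average and the largest difference between the conditioned media, were sought by Pearson correlation of log2 CPM over the 8 libraries among 7915 genes. The 8 points fall into 3 media and share their depth, so a high value says mainly that the media are in the same order. For Dpt these were Mkrn2 (r = 0.990), Adamtsl4 (r = 0.988) and Sdc2 (r = 0.988). The range of Mkrn2 was narrow, with 19.0, 16.7 and 25.2 CPM for shBrca2-CM, shControl-CM and control medium. Sdc2, a heparan sulphate proteoglycan of the cell surface, was at 99.6, 60.8 and 176 CPM and Adamtsl4 at 20.7, 11.7 and 52.5 CPM. For Ly6c1 they were Loxl2 (r = 0.942), Pde4a (r = 0.938) and Pigg (r = 0.934). The matrix cross-linking enzyme Loxl2 was at 17.004, 7.45 and 19.9 CPM, Pde4a at 56.0, 41.4 and 59.3 CPM, and Pigg at 19.9, 14.8 and 19.4 CPM.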

How the data were processed

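RNA of 8 libraries was analysed, 3 with shBrca2-CM, 3 with shControl-CM and 2 with control medium, grouped by their titles. The authors made 3′ end libraries with a variation of MARS-seq, sequenced them on a NextSeq instrument and deposited raw counts of reads per gene, not pooled. Per the labels, the submitters' processing notes name bcl2fastq, cutadapt, STAR 2.4.2a, HTSeq, DESeq2 and mm10. The annotation, the handling of molecular identifiers and the rule by which 12160 genes were kept are not given in the sources used here. The table has 1 further per-sample column, with a DMEM name, that matches no sample, and it was not used, so control medium has 2 libraries here.

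Each pair of groups was fitted alone in R 4.3.3 with edgeR 4.0.16 (limma 3.58.1) on genes with at least 10 counts, with TMM scaling, the quasi-likelihood test and Benjamini-Hochberg adjustment over all genes tested. Standard errors and 95% intervals are from the same fit. Intervals of counts were exact. Ratios were tested with SciPy 1.17.1. The test was tried on simulated counts. Total counts were 655996 to 1095534, 1093609 to 1624392, and 4623846 to 5476988. Alternatives were DESeq2 1.42.0, other scaling, filters and thresholds, thinning to the same depth, a replicate block and leaving out each library. The labels do not say whether same-numbered samples were paired, so no block was used in the main fits.

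The genes and lists were chosen with earlier results of these data known. Named were all 10 listed genes, in each list up to 4 genes called between the conditioned media with the smallest adjusted p, or otherwise the 2 of highest mean CPM, and the 3 genes most like each of 2 members.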

Additional observations from a re-analysis of the deposited data

How the results depend on the processing

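The 26 fold changes of the 9 genes were recomputed in 15 settings each between the conditioned media and 14 each against control medium, which gave 372 values. Direction and call were kept in 346, a call was lost in 13, gained in 4, and the sign turned in 9, none of them a called value. These totals hold the 14 values of Clec3b in each comparison with control medium, of which 13 with shControl-CM and 14 with shBrca2-CM were kept. As that gene passed the filter on low counts through control medium alone, its values are a description. Between the conditioned media the 3 calls became 2 with either DESeq2 test and with an adjusted p under 0.05 and a log2 fold change over 1, 4 with total count scaling, and 1 to 4 when a library was left out. Pdgfra ran from 0.69 to 0.96 over all settings. Against control medium the 6 calls with shControl-CM (5 without Clec3b) became 5 after thinning, when Clec3b had too low a mean count, and 5 to 6 with a library left out. The 7 calls with shBrca2-CM (6 without Clec3b) became 5 under the stricter threshold and 6 to 7 with a library left out, Clec3b counted.

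Signs turned for Ly6a with shControl-CM against control medium (−0.16 with the replicate block, −0.16 to 0.43 with a library left out), for Pdgfra in that comparison (0.32 after thinning), and, with shBrca2-CM against control medium, for Pdgfrb (0.00965 with total counts, 0.015 with at least 30 counts, −0.16 to 0.15 with a library left out) and Ly6c1 (−0.38 to 0.37 with a library left out). The causes were not tested.

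Over the whole table, 345 genes were called between the conditioned media, 130 under the stricter threshold and 128 to 976 with a library left out. The 4488 with shControl-CM against control medium became 2375 under the stricter threshold, 2928 after thinning and 1901 to 5157 with a library left out, and the 4555 with shBrca2-CM became 2185 under the stricter threshold. With the replicate block the members called, Clec3b counted, were 3, 6 and 7 and the whole table gave 311, 4512 and 3850. Correlations of same-numbered deviations were −0.05 to 0.15. Counting noise lowers such values, so they cannot decide whether the numbers pair the samples. With the block, edgeR adjusted p for shControl-CM against control medium went from 0.0174 to 2.28e-12 for Ly6c1 and from 3.56e-04 to 2.03e-31 for Thy1. Between the conditioned media it went from 0.00356 to 0.00942 for Dpt and from 0.0262 to 0.0189 for Ly6c1. Low counts limit Clec3b, with 3 counts over the 6 conditioned medium libraries, and Cd34, with 14 to 20 counts in each of them, and Pdgfra lost its call between the conditioned media after thinning (adjusted p = 0.144).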
